A study of Mus musculus with 2 samples.

Results

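Collagens, laminins and integrins are the gene families through which an epithelial cell builds and holds on to its basement membrane. Collagen chains wind into triple helices, of which type IV forms the sheet-like network of basement membranes and the fibrillar types form the fibres of connective tissue. Laminins are cross-shaped trimers of an alpha, a beta and a gamma chain that form a second network, and integrins are surface receptors of an alpha and a beta subunit that bind these proteins outside the cell and the actin or keratin skeleton inside it. In the kidney the tubules rest on a basement membrane of type IV collagen and laminin, and the α3, α4 and α5 chains of type IV collagen are known from Alport syndrome.

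The genes described here were chosen by name from the annotation of the arrays: every gene called Col, Lama, Lamb, Lamc, Itga or Itgb followed by its chain number or letter. The rule found 86 of the 34763 genes on the array, with 129 of 55681 probes and 138 of the 59305 spots that were not controls. They comprised 44 collagens, 11 laminins, 27 integrin subunits and 4 genes that share the name pattern without being subunits (Itgb1bp1, Itgb1bp2, Itgb3bp and Itgbl1). The RNA came from mIMCD3, a mouse cell line of the inner medullary collecting duct that was labelled as tubule epithelial cells. The FGF23 group had received FGF23, a hormone of the fibroblast growth factor family, at 10 ng/mL for 4 h, and the unstimulated group had been grown in the same serum-containing medium without it. Both RNAs were hybridised together on each of 2 arrays, with FGF23 RNA in Cy3 on array 1 and in Cy5 on array 2. Separate cultures or extracts for each array are not stated in the labels, so all p-values measure only the spread between these arrays, which may be technical. The line stands for 1 cell type in culture, and in such bulk RNA fewer cells making a transcript and less of it per cell cannot be told apart.

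Of the spots, 48.2% and 48.7% in Cy3 and 54.2% and 55.2% in Cy5 were well above background on arrays 1 and 2, and 0 were saturated. The number of arrays limits the precision of every value. The SD of the log2 ratios over all genes was 0.15 on array 1 and 0.13 on array 2, and across the 19221 genes measured Pearson's correlation between the arrays' ratios was -0.12. Of the epithelial markers 12 of 12 were measured (among them Cdh1, Epcam and Krt8), against 1 of 10 fibroblast markers (Fap), 5 of 10 leukocyte markers (Cd68, Csf1r, Cd3e, Tyrobp and Fcer1g) and 2 of 8 endothelial and platelet markers (Kdr and Pecam1). The leukocyte marker Ptprc and the fibroblast markers Pdgfra, Pdgfrb, Dcn and Lum were not measured.

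The cells gave signal for all type IV collagens but few fibrillar ones, for most laminin chains and for some integrin subunits of each of the laminin, collagen and fibronectin receptors. A gene counted as measured when at least 1 of its probes stood well above background in both FGF23 channels or in both unstimulated channels. By this criterion 16 of 44 collagens (36.4%), 8 of 11 laminins (72.7%) and 16 of 27 integrin subunits (59.3%) were measured, beside 19221 of 34763 genes (55.3%) on the whole array. All 42 members measured, the 2 name-only genes included, were well above background in each of the 4 channel measurements. Their log2 intensities lay between 6.47 and 14.1. The dimmest probes called well above background lay at 6.28 and 5.88 in the FGF23 channels and at 6.19 and 6.26 in the unstimulated channels, so the dimmest members sat close to that limit.

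Among the collagens, type IV was complete, with 6 of 6 chains measured. Of the fibrillar collagens only 3 of 11 were measured: Col1a1, a chain of type I collagen, and Col5a1 and Col5a3, which help to start and size collagen fibrils. Col1a2, the partner chain of Col1a1, was well above background in 2 of 4 channel measurements, which did not make up both channels of either group, and Col3a1, the chain of type III collagen, in none. The other measured collagens were Col7a1 (anchoring fibrils), Col6a1 (beaded filaments), Col18a1 (a basement membrane collagen whose tail is cut to endostatin), and Col9a2, Col12a1, Col16a1 and Col20a1 (collagens that sit on fibrils). Of the type VI and related chains 1 of 7 was measured, and of the transmembrane collagens 0 of 4. Col11a2, Col14a1, Col19a1 and Col25a1 were well above background in 1 channel measurement and Col27a1 and Col6a2 in 2. Not measured in any channel were Col2a1, Col5a2, Col6a3, Col6a4, Col6a5, Col6a6, Col8a1, Col8a2, Col9a1, Col9a3, Col10a1, Col11a1, Col13a1, Col15a1, Col17a1, Col22a1, Col23a1, Col24a1, Col26a1 and Col28a1.

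Among the laminins measured were the alpha chains Lama1, Lama3 and Lama5, the 3 beta chains Lamb1, Lamb2 and Lamb3, and Lamc1. These include every chain of the laminin of the kidney tubule (Lama5 with Lamb1 or Lamb2 and Lamc1) and of the early embryonic laminin (Lama1, Lamb1 and Lamc1). Lama2, the alpha chain of muscle, and Lama4, that of vessels, were in no channel well above background, and Lamc3 was in 2.

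The integrin subunits measured were 10 of 18 alpha and 6 of 9 beta subunits. Laminin receptors were represented by Itga3, Itga6 and Itga7 with Itgb1 and Itgb4, and collagen receptors by Itga1, Itga2 and Itga10. Itga5, the fibronectin receptor subunit, and Itgav with Itgb3, Itgb5 and Itgb6, the receptors of vitronectin and latent TGF-beta, were measured as well. Itgb8, another Itgav partner, and Itga8, the receptor subunit for nephronectin, were in no channel well above background. The remaining subunits well above background in no channel were Itga2b, Itga9, Itga11, Itgad, Itgae, Itgax and Itgb2l, and Itga4 and Itgb7 were well above it in 2. Itgal, Itgam and Itgb2, subunits known from leukocytes, met the criterion in this epithelial line, as did 5 of 10 leukocyte markers. The source of their signal was not tested.

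**Figure D1:**
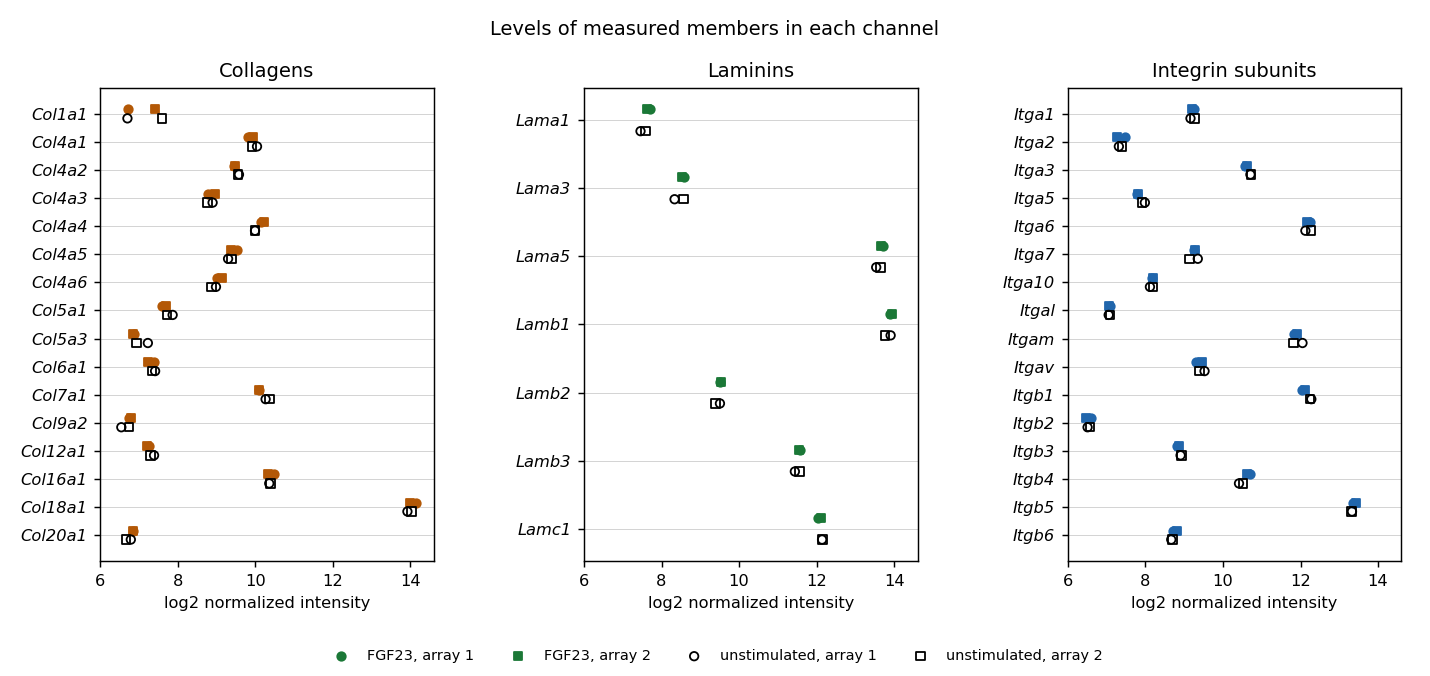
Normalized log2 intensity of measured collagens, laminins and integrin subunits in each channel, with FGF23 as filled symbols above unstimulated as open symbols, circles for array 1 and squares for array 2. The values span 6.47 to 14.1 and each gene's 4 symbols lie close together, except for Col1a1, whose 2 values on array 1 lie left of its 2 on array 2. Each row is a probe of its own, so rows are not to be ranked against each other.

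The comparison of interest was FGF23 over unstimulated in each family. None of the 3 families gave a gene whose ratio passed the test. With limma's moderated test, Benjamini-Hochberg adjustment over all 19221 genes and a threshold of 0.05, 0 of 42 members passed in either direction, beside 9 genes (0.0468%) of all tested, which were higher with FGF23. Each member had a limma adjusted p of 0.99995. At an unadjusted p under 0.05 in the same fit, 1 member lay higher (Col4a4; 500 or 2.6% of all genes) and 2 lower (Col5a3 and Col7a1; 251 or 1.31% of all genes). These shares have so few members behind them that they do not separate the families from the background. The set of members under that p changed with the processing. With the scanner software's own log ratio or with offset 0, Col4a4 and Col7a1 left it. There, 2 and 1 of the collagens that sit on fibrils entered it as higher. Averaging probes removed Col4a4, and under median centring 0 members were in it. No member reached 1.5-fold in 1 direction on both arrays, against 6 genes (0.0312%) of all tested.

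The intervals show what sizes the arrays could still hold. The 95% interval of a member's mean log2 ratio reached between 0.19 and 0.21 to either side. The lowest bound among members was -0.42, a 0.746-fold level (Col5a3), and the highest was 0.39, a 1.31-fold level (Col4a4). From the scanner software's own log ratio the collagen means themselves ran from -0.446 to 0.396, so these bounds hold for this fit only. In 24 of the 42 members the SD between the arrays exceeded the size of the mean ratio, a count given without that over all genes. The contrast of the dyes, Cy5 over Cy3 with neither array turned, was larger in size than the FGF23 ratio in 19 members. With 2 arrays this holds exactly where the array ratios have opposite signs, as in 53.8% of all genes. In the dye contrast 0 members passed the test, beside 0.682% of all genes.

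Of the 3 families the laminins had the highest median log2 ratio on each array, a ranking that was not tested. It did not hold on array 1 under median centring, where the medians were -0.61 for the laminins, -0.55 for the collagens, -0.62 for the integrin subunits and -0.57 over all genes. With loess the laminin median was 0.12 on array 1 and 0.020 on array 2, beside -0.012 and 0.015 over all genes. The collagens had medians of -0.015 and -0.024, and the integrin subunits of 0.027 and -0.038. The SD of the family median between the arrays was 0.070 for the laminins, 0.0070 for the collagens and 0.046 for the integrin subunits. Over the gene means the medians were 0.084 for the laminins, -0.021 for the collagens, which turned positive under median centring (0.020), without a filter (0.019) or with the filter of 1 channel in 4 (0.024), and 0.0056 for the integrin subunits, which turned negative with probes averaged (-0.013), without a filter (-0.0091), under median centring (-0.0055), with that looser filter (-0.0029) and from the scanner software's log ratio (-0.0016). By gene means, 7 of 8 laminins, 8 of 16 collagens and 9 of 16 integrin subunits lay above 0, beside 49.6% of all genes (and 50.4% below). On both arrays at once 4 laminins, 4 collagens and 3 integrin subunits lay above 0 (23.9% of all genes), while 1 laminin, 6 collagens and 4 integrin subunits lay below 0 (22.3% of all genes). The remaining 3 laminins, 6 collagens and 9 integrin subunits had opposite signs on the arrays, as had 53.8% of all genes. These counts rest on the loess step: with median centring in its place, 41 of 42 members and 17995 of 19221 genes had opposite signs on the arrays, while the mean ratios of Col4a4 (0.19), Itgb4 (0.18), Col7a1 (-0.22) and Itgb1 (-0.20) kept their signs.

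**Figure D2:**
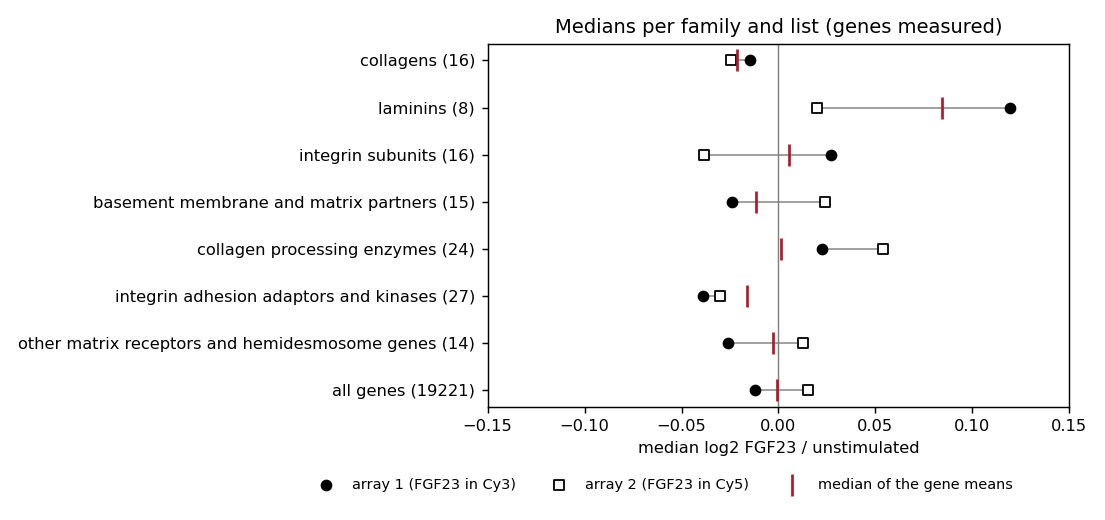
Median log2 ratio of FGF23 over unstimulated per gene family and companion list, with the number of genes measured in parentheses, on array 1 (filled circles), on array 2 (open squares) and over the gene means (red bars). The laminins reach 0.12 on array 1 but 0.020 on array 2, while the collagens and integrin subunits lie between -0.038 and 0.027 on both arrays.

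**Figure D3:**
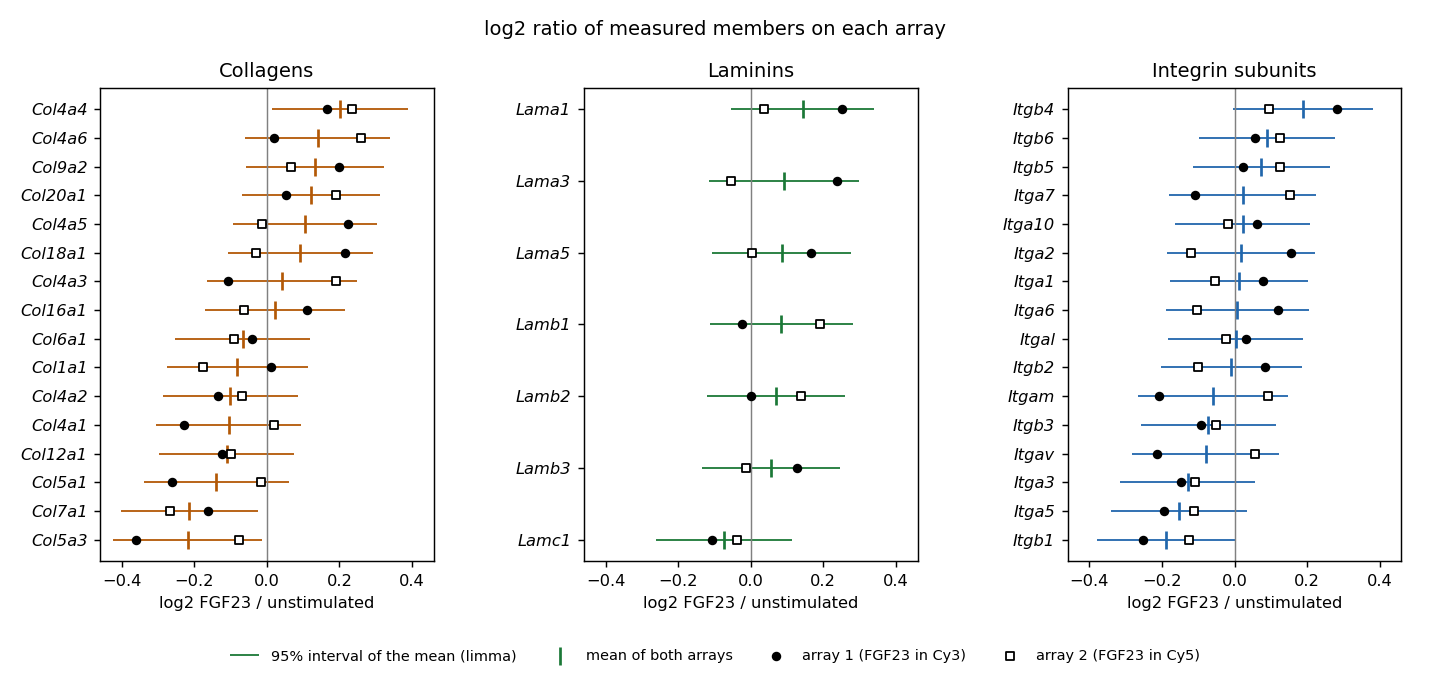
log2 ratio of FGF23 over unstimulated for measured members on array 1 (filled circles) and array 2 (open squares), with the mean (coloured bar) and its 95% interval from limma (line), sorted by mean within a family. Only the intervals of Col4a4, Col7a1 and Col5a3 leave out 0, and they do so without adjustment for the number of genes.

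Among the network-forming collagens of the basement membrane, Col4a4 stood highest. This chain of the α3α4α5 network of the glomerulus and distal tubule had log2 intensities of 10.16 and 10.23 with FGF23, against 9.99 and 9.99 unstimulated, on arrays 1 and 2. Both FGF23 values lay above both unstimulated values, at log2 ratios of 0.17 and 0.24 and a mean of 0.20 ± 0.050 (SD, n = 2 arrays). Its limma p was 0.037 before adjustment, and it did not pass after it. Its other probes did not give that value: the middle one by brightness averaged -0.011 and the dimmest 0.043, each with opposite signs on the arrays. Here and below, groups that do not overlap are described without the share over all genes. The members so described were among those named for large ratios of 1 sign, which favours such a gap. It also sets values of different arrays against each other, outside the pairing of the RNAs on an array.

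The 6 type IV genes lie as head-to-head pairs in the mouse genome, and the probes of each pair lay on opposite strands of the same chromosome (8 for Col4a1 and Col4a2, 1 for Col4a3 and Col4a4, X for Col4a5 and Col4a6). Col4a1 and Col4a2, whose chains make the network found under nearly all epithelia, had mean ratios of -0.11 ± 0.18 and -0.10 ± 0.047. Col4a2 was below 0 on both arrays, at -0.13 and -0.068, while Col4a1 had -0.23 on array 1 and 0.018 on array 2. Col4a3, the pair partner of Col4a4, had -0.11 and 0.19, so the partners shared a sign on array 2 alone. Col4a5 had 0.22 and -0.014, and Col4a6, its partner in the network of Bowman's capsule and collecting duct, had 0.019 and 0.26. A second probe of Col4a6 lay at -0.12 and -0.059, the opposite sign to the brighter probe on both arrays. Over the 6 chains the medians were -0.044 and 0.10.

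Col7a1, which anchors the basement membrane to the tissue below, lay below 0 on both arrays. Its log2 intensities were 10.10 and 10.10 with FGF23, against 10.27 and 10.37 unstimulated, so both FGF23 values lay below both unstimulated ones. The log2 ratios of -0.16 and -0.27 averaged -0.21 ± 0.073, and the limma p of 0.029 before adjustment did not pass after it. Col18a1 had 0.21 and -0.031.

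The 3 fibrillar chains had negative means, with medians of -0.26 on array 1 and -0.078 on array 2. Col5a3 had log2 intensities of 6.87 and 6.85 with FGF23, against 7.23 and 6.93 unstimulated, and a mean ratio of -0.22 ± 0.20 (limma p 0.038 before adjustment, not past the threshold after it). The groups did not overlap, but array 1, at -0.36, carried most of the mean and array 2 gave -0.078. Col5a1 had -0.26 and -0.018. Col1a1 had 6.72 and 7.42 with FGF23, against 6.70 and 7.59 unstimulated. Both of its values were higher on array 2 than on array 1, and its ratios were 0.012 and -0.17. Of the remaining collagens, Col9a2 (0.20 and 0.067) and Col20a1 (0.053 and 0.19) were above 0 on both arrays, Col12a1 (-0.12 and -0.098) and Col6a1 (-0.041 and -0.092) below 0 on both, and Col16a1 had 0.11 and -0.063.

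Among the laminins, Lama3 and Lamb3, chains of the laminin of epithelial anchoring sites, had means above 0 but differed between the arrays. Lama3 had 0.24 and -0.055, and Lamb3 had 0.13 and -0.014. A second probe of Lama3 had -0.16 and 0.052, the reverse order.

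Lama5, the main alpha chain of mature tubule basement membrane, had ratios of 0.17 and 0.0040. Its beta partners had -0.025 and 0.19 (Lamb1) and 0.00036 and 0.14 (Lamb2). Lamc1, the gamma chain these trimers share, was the one laminin with a negative mean, at -0.11 and -0.039 and a mean of -0.073 ± 0.049. Lama1 had log2 intensities of 7.71 and 7.63 with FGF23, against 7.46 and 7.59 unstimulated, and the highest mean of the family, 0.14 ± 0.15. Its groups did not overlap, yet the ratio was 0.25 on array 1 and 0.035 on array 2. The medians of the 3 alpha chains were 0.24 and 0.0040 on arrays 1 and 2, and those of the 3 beta chains 0.00036 and 0.14, so these medians were high on different arrays. Not every chain followed them: the beta chain Lamb3 was higher on array 1, and the second probe of the alpha chain Lama3 on array 2.

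**Figure D4:**
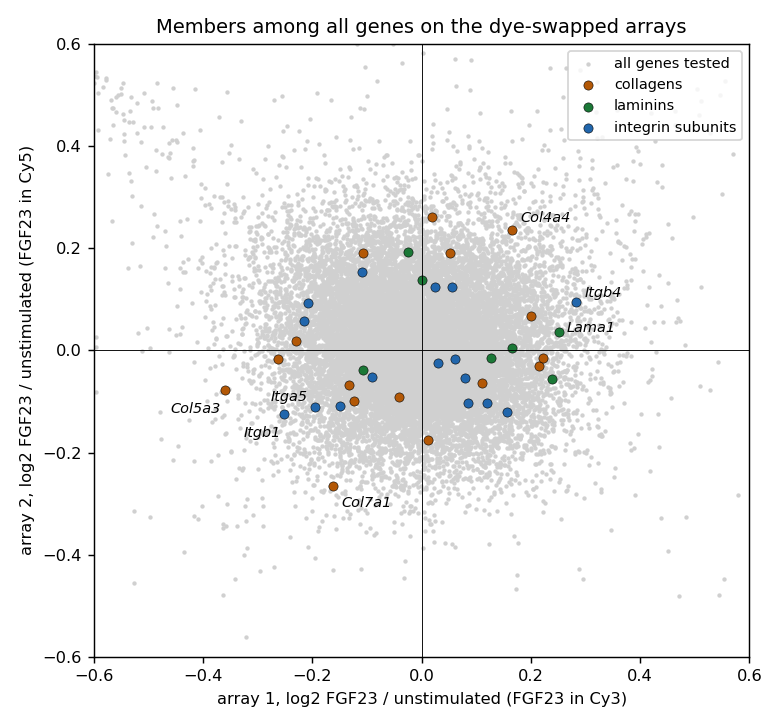
log2 ratio of FGF23 over unstimulated on array 1 (horizontal) against array 2 (vertical) for collagens, laminins and integrin subunits among all genes tested (grey). Axes end at 0.6 in either direction, which leaves 105 genes of the 19221 outside. The members lie within the cloud of all genes, with Col4a4, Lama1 and Itgb4 among those above 0 on both arrays and Col7a1, Itgb1 and Col5a3 among those below 0 on both.

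Among the integrins, Itgb1 and Itgb4, the beta subunits of the laminin receptors, lay on opposite sides of 0. Itgb1 pairs with most alpha subunits and links them to actin. Its 2 kept probes are printed here, 5′ to 3′ from the deposited annotation of the array, because they measure different stretches of the transcript and gave like values. The first lies at chr8:131250081-131255976 on the plus strand of mm9, a span longer than the probe because it crosses an intron, and reads the cytoplasmic tail. Capitals mark the codons of its NPXY motifs, at which talin and kindlin bind, and 0.0018% of all probes on the array hold that pair of motifs on the printed strand. The second lies at chr8:131246349-131246408 on the plus strand.
Itgb1 tail: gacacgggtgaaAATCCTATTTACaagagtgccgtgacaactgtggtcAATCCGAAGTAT
Itgb1 upstream: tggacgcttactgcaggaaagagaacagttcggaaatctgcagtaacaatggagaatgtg

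The tail probe had log2 intensities of 12.03 and 12.12 with FGF23, against 12.28 and 12.25 unstimulated, so the groups did not overlap. Its ratios were -0.25 and -0.13, with a mean of -0.19 ± 0.089 and a 95% interval of -0.38 to 0.0013. The upstream probe had -0.20 and -0.20. Both probes of Itgb1 thus lay below 0 on both arrays. The tail probe, which stood for the gene, did not pass the test, and the upstream probe was not tested by itself.

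Itgb4, which pairs with Itga6 in hemidesmosomes and binds keratin filaments through plectin, had log2 intensities of 10.70 and 10.61 with FGF23, against 10.41 and 10.51 unstimulated. These groups did not overlap either. The ratios of 0.28 and 0.095 averaged 0.19 ± 0.13. Itga6 had 0.12 and -0.10 by its brightest probe and -0.13 and -0.17 by the other, so its direction depended on the probe. Itga3, the other laminin-binding subunit of tubule cells, was below 0 on both arrays, at -0.15 and -0.11 (mean -0.13 ± 0.028). Itga7 had -0.11 and 0.15.

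The collagen receptor subunits were close to 0 or of opposite sign on the arrays. Itga1 had 0.079 and -0.054, and Itga10 had 0.061 and -0.017. Itga2 had 0.16 and -0.12. Its probe, at chr13:115626714-115626773 on the minus strand of mm9, is printed because it covers the GFFKR motif, marked in capitals, which lies just inside the membrane in integrin alpha subunits and helps to hold the alpha and beta tails together. The motif was found in 0.0018% of all probes.
Itga2 tail: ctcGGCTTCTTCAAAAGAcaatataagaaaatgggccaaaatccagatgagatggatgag

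Among the receptors of fibronectin, vitronectin and latent TGF-beta, Itga5 lay below 0 on both arrays and Itgb5 and Itgb6 above 0 on both. Itga5, which pairs with Itgb1 alone, had log2 intensities of 7.79 and 7.81 with FGF23, against 7.99 and 7.92 unstimulated, and a mean ratio of -0.15 ± 0.060. The groups did not overlap. Itgav had -0.21 and 0.057, Itgb3 had -0.091 and -0.052, and Itgb5 had 0.024 and 0.12.

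Itgb6, the epithelial partner of Itgav that releases active TGF-beta, was read by probes from different parts of the transcript. They are printed because both gave ratios above 0 on both arrays. The tail probe at chr2:60438632-60443247 crosses an intron, and the other lies upstream at chr2:60492788-60492847, both on the minus strand of mm9.
Itgb6 tail: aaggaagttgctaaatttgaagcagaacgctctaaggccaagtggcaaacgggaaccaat
Itgb6 upstream: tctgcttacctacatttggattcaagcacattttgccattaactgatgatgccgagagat
The tail probe had log2 intensities of 8.72 and 8.83 with FGF23, against 8.67 and 8.70 unstimulated, and ratios of 0.056 and 0.12. The upstream probe had 0.11 and 0.15. The difference of the tail probe did not pass the test, and the upstream probe was not tested by itself.

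The leukocyte subunits had means near 0: Itgal 0.0032 (negative in 3 of the other settings tried), Itgam -0.058 and Itgb2 -0.0091. The level of Itgam depends on which of its probes is read. The brightest, at a mean log2 intensity of 11.9, holds a run of 10 CA or GT dinucleotides and is the only kept probe of a member with a run of at least 6, which 183 of 55681 probes (0.329%) have. The other, at chr7:135260275-135260334 on the plus strand of mm9, holds no such run, had a mean log2 intensity of 6.60 and was well above background in 3 of 4 channels. It is printed as the probe without the repeat.
Itgam without repeat: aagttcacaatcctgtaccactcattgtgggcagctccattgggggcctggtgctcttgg
The ratios of the bright probe were -0.21 and 0.092, and those of the dim probe -0.20 and 0.097. Whether the repeat sets the brighter signal was not tested.

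Of the genes that only share the name pattern, Itgb3bp, a kinetochore protein also known as Cenpr, had log2 intensities of 10.58 and 10.58 with FGF23, against 10.42 and 10.39 unstimulated. Its ratios of 0.16 and 0.18 averaged 0.17 ± 0.012, the smallest SD of the 42 members, and did not pass the test. Itgb1bp1, which binds the tail of integrin β1, had -0.050 and 0.084. Itgb1bp2, a muscle protein, and Itgbl1, a secreted relative of the beta subunits, were well above background in no channel.

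Several probes could be compared for 15 members. In 8 of them the probe means had both signs and in 7 they had 1 sign, while 27 members rested on 1 kept probe. Lama3, Itga6 and Col4a6 belong to the 8, and Itgb1, Itgb6, Itgav and Col18a1 to the 7.

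**Figure D5:**
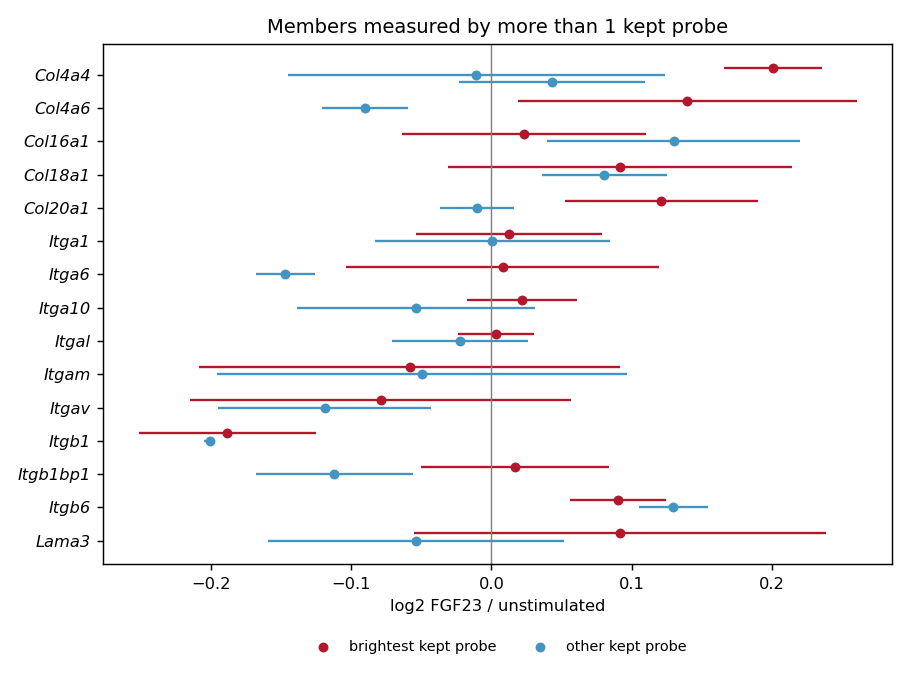
log2 ratio of FGF23 over unstimulated for the 15 members with more than 1 kept probe, with the mean over arrays as a point and the values of both arrays as the ends of the line, for the brightest probe (red) and each other kept probe (blue). The probes of Itgb1 lie below 0 and those of Itgb6 above 0 on both arrays, while those of Col4a6 lie on opposite sides.

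Genes that work with these families were read from 4 lists, and 0 of their measured genes passed the test (limma, the same fit), while 1, P4ha2, passed when the prior followed an intensity trend and was robust. Of the basement membrane and matrix partners 15 of 20 were measured, with a median ratio of -0.012, and the largest means in size were those of Fbln2 (-0.21 ± 0.072), a fibulin, and Tinagl1 (-0.21 ± 0.023), a matrix glycoprotein of tubules. Of the collagen processing enzymes 24 of 28 were measured, with a median of 0.0014. In this fit their largest means in size were those of the prolyl 4-hydroxylase alpha subunits, which make the hydroxyproline that keeps the collagen helix stable. The lowest mean of the list was larger in size than that of P4ha2 from the scanner software's log ratio (-0.79 beside 0.46) and with offset 0 (-0.53 beside 0.46). P4ha2 had log2 intensities of 10.66 and 10.74 with FGF23, against 10.24 and 10.27 unstimulated, and a mean ratio of 0.44 ± 0.032 (limma adjusted p 0.144). P4ha1 had 8.95 and 8.99 with FGF23, against 8.64 and 8.68 unstimulated, and 0.31 ± 0.0053 (limma adjusted p 0.58). In neither gene did the groups overlap, which is given without the share over all genes, and naming by the largest means favours such a gap. Both mean ratios were larger than that of any collagen in this fit, though not from the scanner software's log ratio (P4ha1 0.375, highest collagen 0.396). Neither gene passed the test in this fit. P4ha2 passed it in 1 of the other settings, limma with an intensity trend and robust prior (adjusted p 0.000455), and its adjusted p over all settings ran from there to 0.999997 under median centring. That of P4ha1 ran from 0.14 to 0.999997.

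Of the adaptors and kinases of integrin adhesions 27 of 27 were measured, with a median of -0.016 and the largest means in Kank1 (0.22 ± 0.088), which binds talin, and Flna (-0.20 ± 0.016), which links integrins to actin. Of the other matrix receptors and hemidesmosome genes 14 of 16 were measured, with a median of -0.0031. Cd44, the hyaluronan receptor, had -0.23 and -0.31 (mean -0.27 ± 0.052, limma adjusted p 0.917), and Sdc1, a syndecan, had -0.23 and 0.029. At an unadjusted p under 0.05 in the same limma fit, the 4 lists, in this order, had 0, 2, 1 and 0 genes higher, beside 2.6% of all genes. Lower were 2, 1, 2 and 1 genes, beside 1.31% of all genes. The lists held 15, 24, 27 and 14 measured genes, too few to separate these counts from the background. Itgb1bp1 and Col17a1 stand on these lists as well as among the members.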

How the data were processed

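Total RNA with and without FGF23 was measured on 2 dye-swapped two-colour arrays. The deposited scanner output held a mean signal intensity and a local background median per dye, with Feature Extraction version 11.5.1.1 named in the headers. It also held the software's own log10 ratio (red over green), deposited after background subtraction and dye normalization. Flags in the deposited files marked outliers and spots well above background, and the headers placed the probes on mm9. Exon and UTR annotation of the probes was not used here.

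Signals were corrected with normexp (offset 50) and normalized by loess within each array in limma 3.58.1 (R 4.3.3), with control spots at weight 0 and outlier spots left out. The offset shrinks the ratios of dim probes. Ratios were turned to FGF23 over unstimulated, spots of a probe were averaged, and 26943 of 55681 probes passed the background filter given in the text. The brightest kept probe stood for a gene. Symbols were checked against RefSeq transcripts of GRCm38.p6, which 28026 probes matched, and the 86 members kept their names. Levels per channel are log2 intensities after loess and scaling of average intensity between arrays. The fit (lmFit, eBayes, intercept only) had 1 residual degree of freedom and a prior of 12.0, so the spread was taken mostly over all genes. The fit was also run on data simulated from that prior with independent arrays, which cannot show whether these arrays meet those assumptions. Both arrays lay on 1 slide.

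The members and lists were chosen with earlier results of these data known. Named genes were a list of common chains, any member past the test, up to 4 members of a family per direction with the largest ratio of 1 sign on both arrays, and the genes matched by name only, and for companion lists the largest means. Other members were named to account for them, except 1 measured member that is not reported here and enters only the family counts and medians. Alternatives changed the background correction, offset, normalization, filter, probe choice and prior, and left out 1 array. Protein sequences were not used here, so motifs were searched in the probes.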

Additional observations from a re-analysis of the deposited data

How the results depend on the processing

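In every setting that allows a test (the scanner software's own log ratio, offset 0, median centring in place of loess, no filter, a stricter filter, probes averaged, and an intensity trend with robust prior) 0 members passed in limma. The 9 calls over all genes became 0 with the software's log ratio, 0 under median centring, 5 with offset 0, 10 under either change of filter, 16 higher and 1 lower with probes averaged, and 59 higher and 20 lower with the trend and robust prior. With that prior P4ha2, of the collagen processing list, passed as well. The collagen median of -0.021 became -0.039 with offset 0, -0.033 from the software's log ratio, 0.019 without a filter and 0.020 under median centring. Turning neither array (Cy5 over Cy3, chosen after seeing the data) gave medians of 0.023 for collagens, -0.025 for laminins and 0.020 for integrin subunits. For FGF23 over unstimulated these medians were -0.021, 0.084 and 0.0056, so only that of the laminins was clearly larger in size than its dye median. Also chosen after seeing the data, the integrin median was 0.012 without Itgal, Itgam and Itgb2 and 0.0056 with the dim Itgam probe. Median centring moved the median of all genes to -0.57 on array 1 and 0.56 on array 2. With it the collagens had 1 gene above 0 and 0 below 0 on both arrays, the laminins 0 and 0, and the integrin subunits 0 and 0. Without a filter the collagens had 12 above and 11 below, and the integrin subunits 5 above and 7 below. Single-gene ratios changed sign in 9 of 294 values: with median centring Col1a1 (0.028), Itga2 (-0.0012), Itga6 (-0.0069) and Itgal (-0.0042), with probes averaged Itga6 (-0.070), Itga10 (-0.016), Itgal (-0.0095) and Itgb1bp1 (-0.048), and with the software's log ratio Itgal (-0.0090). The stricter filter and the robust prior cannot change a measured member's ratio, and without a filter the same brightest probe stood for it. The 294 therefore include values that could not change sign. The cause was not tested. With 1 array left out the medians ranged from -0.024 to -0.015 for collagens, 0.020 to 0.12 for laminins and -0.038 to 0.027 for integrin subunits. The fit was already paired, because each array holds both RNAs and its ratio is the pair, so no further pairing was possible. Signal over background limits the 44 members not measured, and 10 of them passed in some channel. With 1 slide, slide effects cannot be examined.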
